A study of Mus musculus with 7 samples.

Results

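The Bcl2 family decides whether a cell under stress keeps its mitochondria intact or undergoes apoptosis. It was followed here through 10 members, 3 pro-survival genes (Bcl2, Bcl2l1 and Mcl1), 2 pore-forming genes (Bax and Bak1) and 5 BH3-only genes (Bcl2l11, Bid, Bad, Bbc3 and Pmaip1), taken by gene symbol. The deposited annotation names 22 probes for 9 of the 10 genes, out of 24048 probes in all, and 21 of the 22 carry values. No probe is named for Bax, which was not analysed here, and 1 of the Bbc3 probes has no value. The tumours came from J558, a myeloma line of mouse plasma cells, placed under the skin of the neck of male BALB/c mice, 10 weeks old by the labels, which all ate the same standard chow. The control group drank distilled water (4 samples) and the other group drank oil palm phenolics, OPP, at 1500 ppm gallic acid equivalents (3 samples). Both groups carried the same tumour line, and a group without tumour was not part of the comparison. Each sample was hybridised to 1 BeadChip array, and the values are background-subtracted, rank-invariant normalised intensities on a linear scale, called signals here. The arrays hold separate total RNA samples of tumours, picked in each group by RNA integrity as the methods describe. Neither the methods nor the labels tie a sample to a mouse, so all p-values below reflect the spread between these samples.

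Proteins of the Bcl2 family meet at the outer membrane of mitochondria. Bax and Bak, once active, form pores through which cytochrome c leaves and starts the caspases, and the pro-survival proteins hold them in check. BH3-only proteins report stress and bind the pro-survival proteins, or Bax and Bak directly, so that the balance of the groups sets the outcome. Normal plasma cells depend on Mcl1, and many myelomas do as well.

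A probe was tested where its signal lay above the noise of the array (limits of 20.6 to 26.6 signal units) on each array of the control group, the OPP group or both. The array medians were 14.1 to 17.3, and 44.4% to 47.0% of probes lay above the limits. Summed markers of plasma cells were 43300 to 49600 in control and 45200 to 49200 in OPP tumours, with 8 of the 9 measured markers above background on all 7 arrays. Summed markers of skeletal muscle were 6930 to 27500 in control and 966 to 4990 in OPP tumours, without overlap. Of the 13 measured muscle markers, 2 were above background on all 7 arrays. Those of T and NK cells were 1090 to 3210 and 737 to 2130, and those of macrophages 5200 to 11400 and 6100 to 8840. The part of these cells in the member signals was not tested, and fewer cells of a type and less RNA per cell cannot be told apart in such bulk tumour RNA.

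No member differed between control and OPP tumours past the adjusted threshold. Of the 12 member probes tested, for 7 genes, 0 had an adjusted p under 0.05 by limma with Benjamini-Hochberg adjustment over all probes, against a background of 0.0% of the 10371 probes tested. An unadjusted p under 0.05 was found for 2 of the 12, 1 of Bcl2l1 and 1 of Bcl2l11, both higher in OPP tumours, against 9.36% of all tested probes. The groups overlapped for every one of the 12, whereas 9.7% of all tested probes did not overlap. The log2 change, OPP minus control, was above 0 for 8 of the 12 member probes and below 0 for 4, beside a median of 0.01 and 51.7% above 0 over all tested probes. Of the 4, the dimmest tested Bcl2 probe (log2 change −0.24) passed the filter through the control group alone. Of the 9 member probes not tested, 4 were above background on no array.

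**Figure D1:**
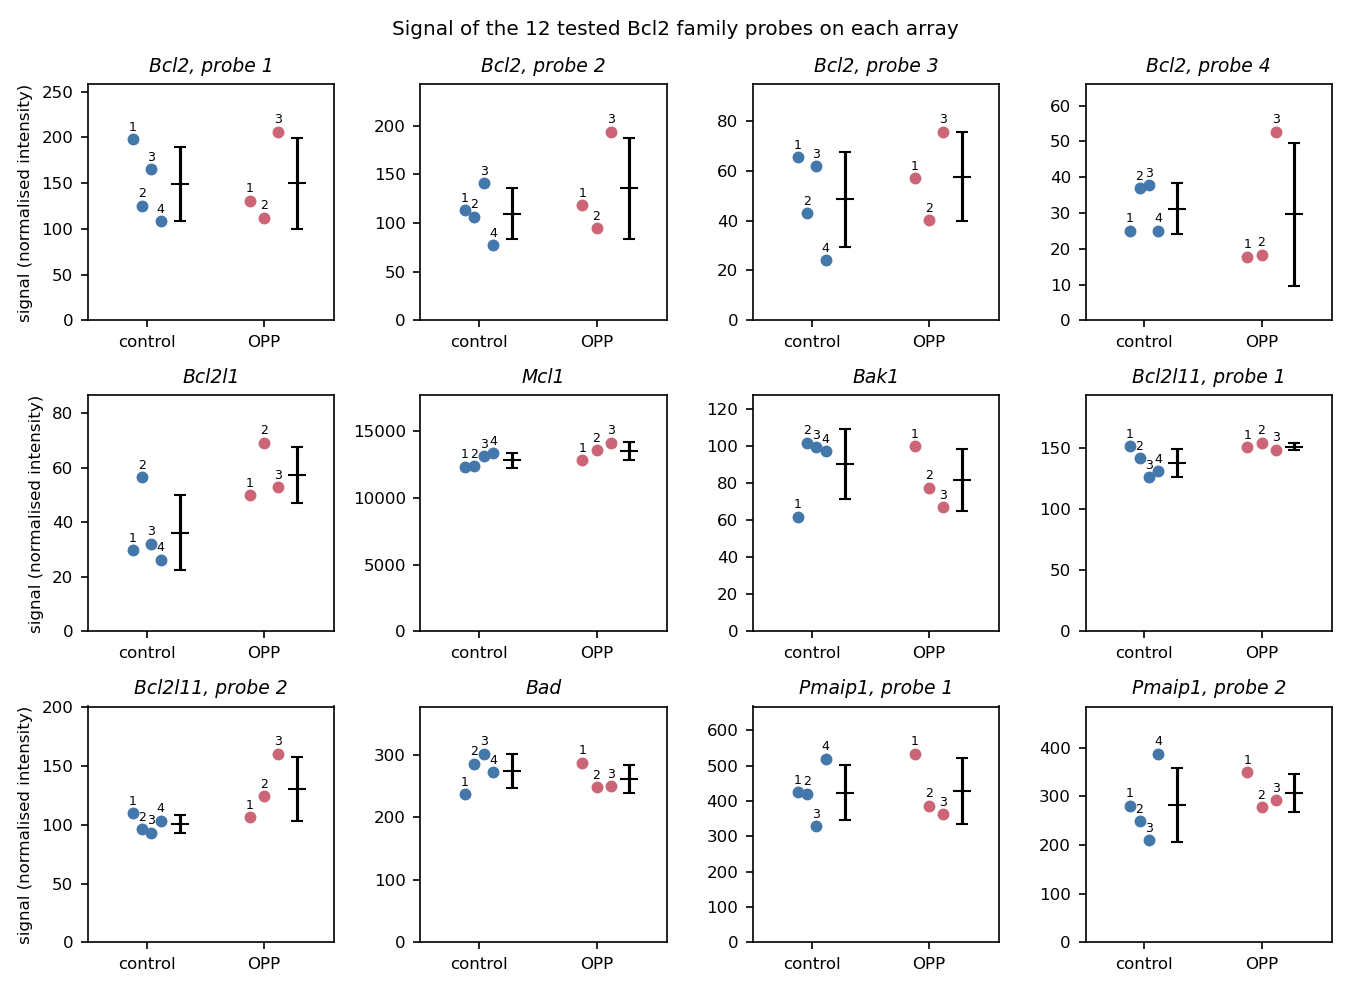
Signal of the 12 tested member probes (y axis, linear normalised intensity from 0, scale differs by panel) on each of 4 control (blue) and 3 OPP (red) arrays, with numbered points as replicates and bars as mean ± SD. The 3 OPP points overlap the control points in every panel, and OPP replicate 3 holds the highest signal for 4 of 4 Bcl2 probes.

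Among the pro-survival members, Bcl2l1 had the largest difference. Bcl2l1, which encodes Bcl-xL, a protein that binds Bax, Bak and the BH3-only proteins, lies on chromosome 2 (chr2:152758732-152833803, GRCm38.p6). Its tested probe had signals of 29.7, 56.4, 32.1 and 26.3 in control replicates 1 to 4 and of 49.9, 69.1 and 52.9 in OPP replicates 1 to 3. The groups overlapped through control replicate 2 alone, which lay above OPP replicates 1 and 3, whereas the other 3 control samples lay below all 3 OPP samples. Control tumours averaged 36.1 ± 13.7 (SD, n = 4), against 57.3 ± 10.3 (SD, n = 3) with OPP. This was a log2 change of 0.72 (SE 0.27), 1.65-fold with a 95% interval of 1.07 to 2.53. It did not pass over all probes (adjusted p = 0.485 by limma), and the exact two-sided permutation test gave p = 0.171, where the smallest p that 35 splits of the arrays allow is 0.0571. The signals lay close to background. With a floor of 50 in place of 10 the log2 change was 0.14, and without control replicate 2 it was 0.95, with adjusted p from 0.374 to 0.986 over the alternatives. Of the other Bcl2l1 probes, 1 was above background on no array and 1 on OPP replicate 3 alone.

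Mcl1, whose protein turns over quickly and holds Bak in check, was bright and even across the tumours (chr3:95656944-95663179). Its signals were 12334.9, 12364.8, 13128.0 and 13370.6 in control replicates 1 to 4 and 12837.1, 13558.7 and 14132.0 in OPP replicates 1 to 3. OPP replicates 2 and 3 lay above every control sample, and OPP replicate 1 lay within the control range. The means were 12800 ± 529 (SD, n = 4) and 13510 ± 649 (SD, n = 3), a log2 change of 0.08 (SE 0.09), or 1.06-fold with a 95% interval of 0.918 to 1.21 (adjusted p = 0.791 by limma). Across the 7 arrays the log2 signal had an SD of 0.07, and 97.0% of the tested probes had a larger one. Relative to the brightest probe of each array, Mcl1 reached 27.6% to 33.6%.

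Bcl2, the founding pro-survival member (chr1:106538176-106714290), has 8 probes, 4 of them tested. The brightest had signals of 197.8, 125.2, 165.4 and 108.1 in control replicates 1 to 4 and of 130.8, 112.1 and 206.2 in OPP replicates 1 to 3. Both groups thus spanned almost the same range, with means of 149.1 ± 40.4 (SD, n = 4) and 149.7 ± 49.8 (SD, n = 3). Its log2 change was −0.00 (95% interval −0.64 to 0.63, adjusted p = 0.997 by limma). The second probe had signals of 113.3, 106.4, 141.1 and 77.4 in control and of 118.6, 94.7 and 193.7 in OPP tumours, with a log2 change of 0.27 (SE 0.28, adjusted p = 0.779 by limma). The third had 65.3, 42.9, 61.9 and 24.1 in control and 57.1, 40.2 and 75.6 in OPP tumours, with a log2 change of 0.30 (SE 0.37). The fourth had 25.1, 37.0, 37.7 and 25.1 in control and 17.8, 18.4 and 52.7 in OPP tumours, of which the first pair lay below background, and its log2 change was −0.24 (SE 0.39).

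The Bcl2 probes shared 1 feature that the comparison of groups does not show. OPP replicate 3 had the highest signal for 4 of the 4 tested Bcl2 probes and for 7 of all 8. That array held the highest signal for 6 of the 12 tested member probes, beside 21.0% of all tested probes. It also did so for 13 of the 21 member probes with values. The counts of 13 and of 7 include untested probes, for which the share of 21.0% is no background. Of the 9 untested member probes, 4 were above background on no array. Probes of 1 gene share their RNA and are not replicates. On the same array the summed T and NK cell markers were at their lowest, 737, and the plasma cell markers stood at 45200, within the range of the other tumours. The part of these in the Bcl2 signal was not tested.

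Bak1, the pore-forming member measured here (chr17:27019812-27028627), had signals of 62.0, 102.0, 99.4 and 97.5 in control replicates 1 to 4 and of 100, 77.6 and 67.2 in OPP replicates 1 to 3. Control replicate 1 was the lowest of all 7 samples, below the other 3 control samples, and OPP replicates 2 and 3 fell between. The means were 90.2 ± 18.9 (SD, n = 4) and 81.6 ± 16.8 (SD, n = 3), a log2 change of −0.14 (SE 0.22, adjusted p = 0.852 by limma). Without control replicate 1 the change was −0.31 (adjusted p = 0.491 by limma) and without OPP replicate 3 it was −0.01.

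The BH3-only members were measured by 8 probes with values, of which 5 were tested, for Bcl2l11, Bad and Pmaip1. Bcl2l11 encodes Bim, which binds all pro-survival members, and is a known target of forkhead (FoxO) factors. Its brighter probe had signals of 151.7, 141.8, 126.2 and 131.2 in control replicates 1 to 4 and of 150.6, 154.5 and 148.7 in OPP replicates 1 to 3. The OPP samples lay close together near the top of the control range or just above it, and the log2 change was 0.14 (SE 0.10, adjusted p = 0.670 by limma). The second probe had 109.9, 96.3, 93.3 and 103.7 in control and 106.5, 124.7 and 160.6 in OPP tumours. OPP replicates 2 and 3 lay above every control sample, and OPP replicate 1 lay within the control range. The means were 100.8 ± 7.48 (SD, n = 4) and 130.6 ± 27.5 (SD, n = 3), with a log2 change of 0.36 (SE 0.15), or 1.28-fold with a 95% interval of 1.00 to 1.63 (adjusted p = 0.522 by limma). Without OPP replicate 3 the log2 change was 0.20. The promoter window of Bcl2l11 that holds a forkhead word is shown because Bcl2l11 was the BH3-only member with a probe under the unadjusted threshold. The word GTAAACA, in capitals, was searched on both strands in the 250 bases before each RefSeq gene start (GRCm38.p6), where 3.17% of 32851 promoters hold it. Among the members it was found in 1 of 2 promoters of Bcl2l11 and 1 of 3 of Bbc3, and a match is a description of the letters alone.
Bcl2l11 (chr2:128125788-128125847, plus strand): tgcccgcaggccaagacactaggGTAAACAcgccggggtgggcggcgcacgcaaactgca

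Bad, which binds Bcl2 and Bcl-xL when growth factor signals are withdrawn (chr19:6941861-6951905), had signals of 237.4, 285.8, 301.9 and 272.0 in control replicates 1 to 4 and of 287.5, 248.8 and 249.5 in OPP replicates 1 to 3. All 3 OPP samples lay within the control range, and the log2 change was −0.06 (SE 0.11, 95% interval −0.33 to 0.20, adjusted p = 0.869 by limma). Pmaip1, which encodes Noxa, a p53 target and a binder of Mcl1, had 424.0, 420.6, 329.1 and 519.7 in control and 533.5, 386.3 and 362.6 in OPP tumours on its brightest probe. Its highest sample, OPP replicate 1, lay just above control replicate 4, and the other 2 OPP samples lay within the control range. The means were 423.4 ± 77.8 (SD, n = 4) and 427.5 ± 92.6 (SD, n = 3), and the log2 change was 0.01 (SE 0.19, adjusted p = 0.990 by limma). The second tested probe of Pmaip1 had a log2 change of 0.15 (SE 0.21), with signals of 210.1 to 387.8 in control and 277.8 to 350.3 in OPP tumours, and again control replicate 3 was the lowest sample.

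Bid and Bbc3 stayed near or below background. Bid, which death receptor signals cleave into an active form, had signals of 5.0, 9.1, 9.5 and 5.9 in control replicates 1 to 4 and of 7.2, 12.5 and 22.8 in OPP replicates 1 to 3. Bbc3, which encodes Puma, a p53 target, had 16.0, 9.5, 10.6 and −3.4 in control and 17.8, 0.2 and 22.9 in OPP tumours. Both lay above the limit on OPP replicate 3 alone and were not tested, so a level or a difference was not detectable for them on these arrays.

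**Figure D2:**
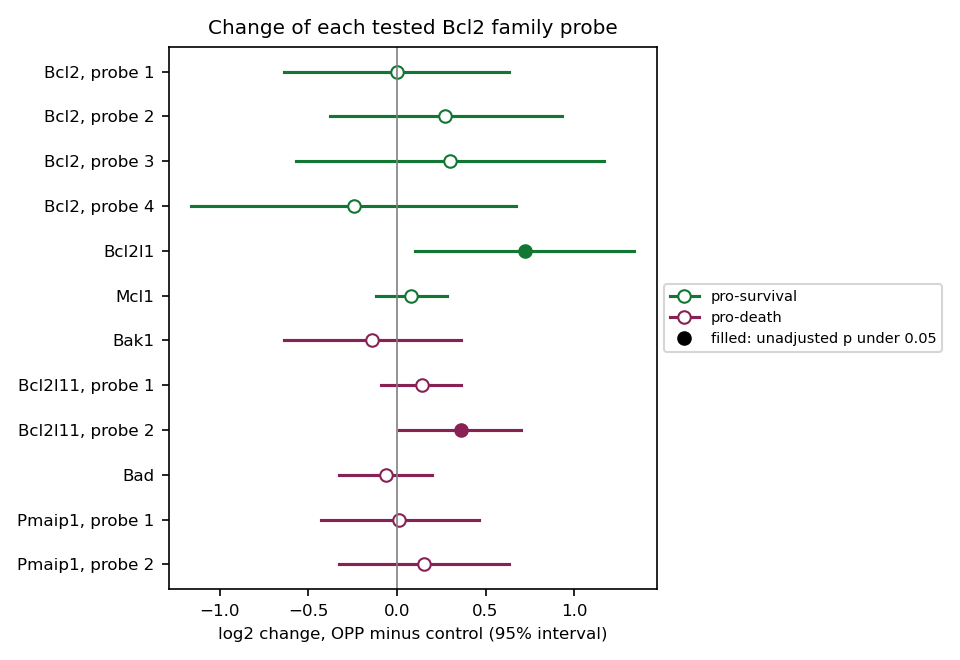
Log2 change, OPP minus control, of the 12 tested member probes (x axis), with lines as 95% intervals from limma, green for pro-survival and purple for pro-death members. Filled points mark the 2 probes with an unadjusted p under 0.05, Bcl2l1 (0.72) and the second probe of Bcl2l11 (0.36), and the intervals of the other 10 span 0.

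The pro-survival and pro-death sides were set side by side with 1 probe, the brightest tested, for each gene. The 3 pro-survival genes had a median log2 change of 0.08, with 2 above 0, and the 4 tested pro-death genes (Bak1, Bcl2l11, Bad and Pmaip1) had −0.03, with 2 above 0. Without OPP replicate 3 the order turned, with 0.04 for the pro-survival and 0.06 for the pro-death genes. Leaving out each array in turn, the pro-survival median ranged up to 0.18 (without OPP replicate 2, and 0.14 without control replicate 1). The pro-death median ranged down to −0.15 (without OPP replicate 1), was −0.06, −0.01 and −0.05 without control replicates 1, 2 and 3, and was 0.02 without control replicate 4 or OPP replicate 2. Over all 7191 genes tested the median was −0.00 and 48.9% were above 0. One gene of the 7, Bcl2l1, was higher in OPP tumours at an unadjusted p under 0.05, where 4.69% of all genes were higher and 3.78% lower. No score over the members was tested.

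Outside the members, the other family genes showed the widest spread among tumours in the copies of Bcl2a1. These encode A1, a pro-survival protein of immune cells known as a target of NF-κB, and the mouse has several near-identical copies on chromosome 9. Bcl2a1a had signals of 272.5, 2110.2, 1503.7 and 1422.0 in control replicates 1 to 4 and of 1126.2, 867.0 and 204.6 in OPP replicates 1 to 3. Control replicate 1 and OPP replicate 3, 1 from each group, were far below the other 5 tumours, which had 867.0 to 2110.2. For Bcl2a1a the log2 change was −0.85 (SE 0.83, 95% interval −2.78 to 1.08, adjusted p = 0.770 by limma), and the brightest array had 10.3 times the signal of the lowest. Bcl2a1b and Bcl2a1d, named after their values were seen, had the same pair of arrays at the bottom, at 386.6 to 481.6 against 1478.5 to 3432.3 for Bcl2a1b and at 334.7 to 411.3 against 1345.1 to 3094.9 for Bcl2a1d. Their log2 changes were −0.72 (SE 0.78) and −0.75 (SE 0.79). The SD of the log2 signal was 1.29, 1.20 and 1.22 for the 3 copies, beside a median of 0.20 over all tested probes, and fewer than 1% of tested probes had a larger one (0.76%, 0.93% and 0.85%). The probe of Bcl2a1c was above background on no array. Because the copies are nearly alike, each probe may bind RNA of several copies, and their signals are uncertain as separate measurements.

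Summed T and NK cell markers were low on the same 2 arrays, at 1090 in control replicate 1 and 737 in OPP replicate 3 against 1820 to 3210 in the other 5. Of the 14 markers listed, 12 had a probe and 2 were above background on all arrays, whereas Cd4, Gzma and Gzmb were above it on none. Summed macrophage markers were 5200 and 6100 on these arrays against 7310 to 11400 on the other 5, with 7 of 8 measured markers above background on all arrays. The part of these cells in the Bcl2a1 signals was not tested. With both arrays left out, an alternative added after the data were seen, the log2 change of Bcl2a1a was −0.74 (adjusted p = 0.356 by limma), of Bcl2a1b −0.62 and of Bcl2a1d −0.66, and without OPP replicate 3 alone they were −0.09, −0.02 and −0.04. Without control replicate 1 alone that of Bcl2a1a was −1.50 (adjusted p = 0.409 by limma).

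**Figure D3:**
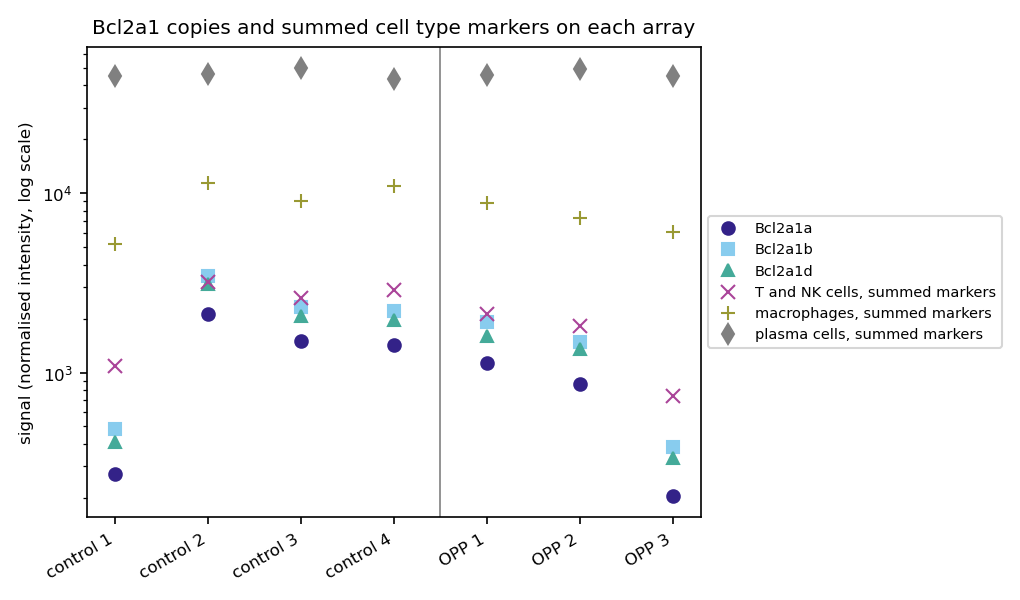
Signals of 3 Bcl2a1 copies and summed signals of T and NK cell, macrophage and plasma cell markers (y axis, normalised intensity, log scale) on each of the 7 arrays (x axis). The Bcl2a1 copies and the T and NK cell sum are lowest on control replicate 1 and OPP replicate 3, whereas the plasma cell sum stays between 43300 and 49600.

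The promoters of the Bcl2a1 copies are shown because these genes had the largest spread of the family and shared their 2 lowest arrays. Each window is 100 bases from RefSeq (GRCm38.p6), upstream of the gene start and set so that the word begins at the same base of each window, and the capitals mark GAGGAAGT, a word of the kind that ETS-family factors such as PU.1 bind. The word was chosen after the promoters were read. It was found on either strand of the 250 bases before the start in 802 of 32851 promoters (2.44%), and among the members in 1 of 1 promoter of Bak1 and 1 of 2 of Bad. The windows of Bcl2a1a and Bcl2a1b differ by 1 base, and those of Bcl2a1c and Bcl2a1d, the most different pair, by 10.
Bcl2a1a (chr9:88956806-88956905, plus strand): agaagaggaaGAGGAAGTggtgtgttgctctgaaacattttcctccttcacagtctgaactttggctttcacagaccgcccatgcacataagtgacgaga
Bcl2a1b (chr9:89199115-89199214, plus strand): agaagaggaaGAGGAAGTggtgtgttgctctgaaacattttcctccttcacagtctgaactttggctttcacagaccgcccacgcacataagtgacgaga
Bcl2a1c (chr9:114329911-114330010, plus strand): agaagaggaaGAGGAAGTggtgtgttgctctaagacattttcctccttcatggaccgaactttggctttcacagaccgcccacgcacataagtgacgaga
Bcl2a1d (chr9:88731865-88731964, minus strand): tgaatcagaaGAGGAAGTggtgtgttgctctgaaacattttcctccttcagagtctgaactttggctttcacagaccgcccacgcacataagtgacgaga
The word begins 104 bases before the annotated start of Bcl2a1a and Bcl2a1d, 148 before that of Bcl2a1b and 214 before that of Bcl2a1c, whose probe gave no signal above background.

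None of the remaining family genes passed the test. Bcl2l2, which encodes the pro-survival protein Bcl-w, had signals of 360.2, 257.4, 313.7 and 300.5 in control and of 356.6, 365.5 and 338.6 in OPP tumours. The OPP samples lay at or near the top of the control range, and the log2 change was 0.21 (SE 0.13, adjusted p = 0.635 by limma). Bik, a BH3-only protein of the endoplasmic reticulum, had a log2 change of 0.26 (adjusted p = 0.703 by limma), and Bok, a pore-forming relative of Bax and Bak, had 0.19 (adjusted p = 0.779 by limma). Bmf, Hrk, Bnip3 and Bcl2l10 were above background on no array.

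The wider pathway was described through 49 genes in 7 lists outside the members, of which 42 had a probe and 30 were tested. At an adjusted p under 0.05 there were 0 by limma, and at an unadjusted p under 0.05 0 were higher and 0 lower, against 4.69% and 3.78% of all genes. The log2 change was above 0 for 14 and below 0 for 16, with a median of −0.02. Of the 16, Birc6 passed the filter through the control group alone. Without control replicate 1, Naip2, Birc3 and Bcl2a1a had lower and Bcl2l2 higher signals in OPP tumours at an unadjusted p under 0.05, where 7.44% of all 7340 genes then tested were lower and 4.22% higher. Fbxw7 was lower at that threshold without control replicate 4, as were 2.91% of all genes, and Usp9x was higher without OPP replicate 1, as were 5.12%. Naip2, an inhibitor of apoptosis family member that serves as a sensor of bacterial proteins, had signals of 30.7, 74.4, 66.3 and 60.3 in control and of 40.2, 39.9 and 37.2 in OPP tumours. Its lowest sample was control replicate 1, and the other 3 control samples lay above all 3 OPP samples. The log2 change was −0.49 (SE 0.29, adjusted p = 0.625 by limma), and −0.77 without control replicate 1 (adjusted p = 0.126 by limma).

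Genes of the inhibitor of apoptosis family, some of which block caspases or the signals that activate them, had a median log2 change of −0.20 over 5 tested genes. On the brightest probes 4 of these were below 0. Of the 4, Birc6 (log2 change −0.34) passed the filter through the control group alone, where its mean signal was higher (40.3 against 30.5). Birc2, at −0.11 on its brighter probe, had 0.21 on the other. Xiap was above background on no array, and Naip1 had no probe, so the median covers neither. Birc3, an inhibitor that acts in NF-κB signalling, had signals of 206.1, 252.3, 256.3 and 240.2 in control and of 187.3, 224.0 and 211.3 in OPP tumours. Control replicate 1 lay among the OPP samples, below the other 3 control samples, and the log2 change was −0.20 (adjusted p = 0.620 by limma).

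Genes of the apoptosome and the effector caspases, which act after cytochrome c release, had a median of −0.04 over 7 tested genes, 3 above and 4 below 0. Endog, a mitochondrial nuclease, had 0.18 (adjusted p = 0.655 by limma), and Htra2, a mitochondrial protease, had −0.10 (adjusted p = 0.747 by limma) on its brighter probe and 0.16 on the other. Casp9, the caspase of the apoptosome, was not above background on every array of either group.

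In the death receptor pathway 3 genes were tested, all with changes below 0 on their brightest probes and a median of −0.09. Fadd, the adaptor of these receptors, had −0.09 (adjusted p = 0.789 by limma) on its brightest probe, and −0.08 and 0.09 on its other tested probes. Tnfrsf1a, a receptor of TNF, had −0.11 (adjusted p = 0.852 by limma). Fas, Fasl, Tnfrsf10b, Tnfsf10 and Cflar did not pass the filter on low signals.

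Membrane partners of the family had a median of 0.11 over 6 tested genes, with 5 above 0. These were Vdac1, Vdac2, Vdac3 and Mtch2 of the outer mitochondrial membrane, and Bcap31 and Tmbim6 of the endoplasmic reticulum. Bcap31 had a log2 change of 0.19 and Tmbim6 of 0.03. Mtch2, a receptor of cleaved Bid, had signals of 1209.7, 1309.1, 1327.3 and 1617.0 in control and of 1423.5, 1488.6 and 1937.0 in OPP tumours. OPP replicate 3 was the highest sample, and the other 2 OPP samples lay within the control range. The log2 change was 0.24 (SE 0.15, adjusted p = 0.644 by limma) on this probe and 0.01 on the dimmer one, and that of Vdac3, a channel protein, was 0.18 (adjusted p = 0.678 by limma).

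The enzymes that set how long Mcl1 protein lasts had changes of opposite sign, neither past the test. Usp9x, which removes ubiquitin from Mcl1, had signals of 49.3, 41.0, 42.8 and 43.3 in control and of 46.2, 50.7 and 60.8 in OPP tumours, with a log2 change of 0.25 (SE 0.12, adjusted p = 0.572 by limma) that became 0.34 without OPP replicate 1. OPP replicates 2 and 3 lay above every control sample. Fbxw7, the substrate receptor of a ubiquitin ligase of Mcl1, had signals of 573.7, 539.0, 389.7 and 361.0 in control and of 338.7, 367.4 and 388.1 in OPP tumours. Control replicates 1 and 2 lay well above the rest, while control replicate 3 lay just above the highest OPP sample and control replicate 4 lay among the OPP samples. For Fbxw7 the log2 change was −0.33 (SE 0.18, adjusted p = 0.613 by limma), or −0.44 without control replicate 4, and protein levels were not measured.

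**Figure D4:**
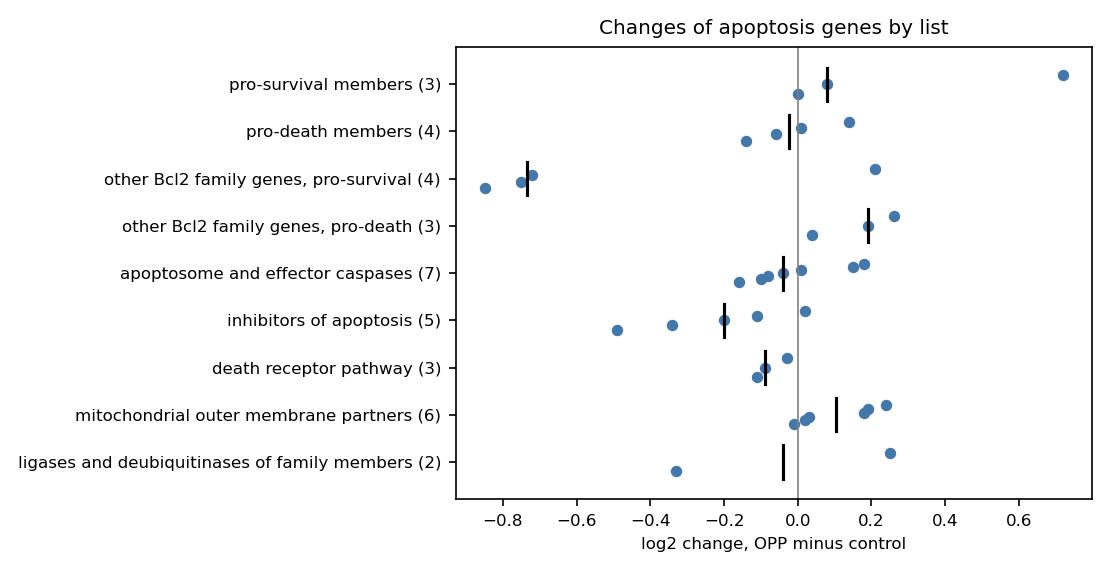
Log2 change, OPP minus control (x axis), of the brightest tested probe of each gene, by list (rows, number of tested genes in brackets), with vertical bars as list medians. The medians lie between −0.20 and 0.19 except for the other pro-survival genes, whose −0.74 rests on the 3 Bcl2a1 copies. The row of mitochondrial outer membrane partners also holds Bcap31 and Tmbim6, which are proteins of the endoplasmic reticulum.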

How the data were processed

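The deposited intensities were extracted by the authors with BeadStudio 1.5.1.3, background-subtracted, freed of outlier samples and normalised by the rank invariant method. They were used on their linear scale. A table of signals before normalization (14 columns) was left aside, since none of its headers matches a label. From the 24048 probes, 66 without values and 4 bacterial controls were left out. Values under 10, the study's floor, were set to 10 and log2 was taken. Probes over 2.33 SD of the noise, estimated from values at or below 0, on all arrays of either group were tested (10371) by moderated linear models (limma 3.58.1, lmFit and eBayes, R 4.3.3) with Benjamini-Hochberg adjustment. The Illumina custom error model of the study was not held here. The brightest tested probe stands for a gene. Exact permutation tests used scipy 1.17.1. Named are all members and, of each list, the 2 genes with the smallest p. The members and lists were chosen with earlier results of these data known. The fit was tested on simulated data. The number of arrays limits the precision.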

Additional observations from a re-analysis of the deposited data

Results flagged for a closer look

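The log2 signal of Bak1 on control replicate 1 stood apart from the other 3 control samples, with a gap of 0.909 of the group's range. Its signal was 62.0, against 97.5 to 102.0 on the other 3. This was 1 of 28 probes checked, and chance marks about 1 in 20 groups in this way.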

How the results depend on the processing

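Over 17 alternatives, 111 of 119 values of single members kept their sign and 0 had an adjusted p under 0.05 by limma (smallest 0.374). Bcl2 turned above 0 with quantile normalization (0.00) and the mean of its probes (0.08), and lay between −0.26 and 0.18 with 1 array left out. Pmaip1 lay between −0.16 and 0.12 with 1 array left out. Member probes at an unadjusted p under 0.05 fell from 2 to 1 with median scaling, a trended and robust prior, averaging a gene's probes and both arrays left out, and to 0 with a floor of 50 and with no detection filter. Leaving out 1 array gave 0 (control replicates 3 or 4, OPP replicate 2), 1 (control replicates 1 or 2, OPP replicate 3) or 2. The replicate numbers showed no sign of pairing the samples (correlations of same-numbered deviations −0.32, 0.15 and −0.15), though so few correlations cannot settle this. With the number as a block, 1 member probe had an unadjusted p under 0.05. List genes lower at that p were 0 of 30, and 1 of 42 without a detection filter (343 of all 14739 genes). They were 0 to 3 with 1 array left out (3 of 30, against 7.44%, without control replicate 1). List genes higher at that p were 0 to 1. With both arrays left out, an alternative added after the data were seen, 4 of 30 were lower (6.36% of all genes). These 4 were Naip2 and the 3 Bcl2a1 copies, whose signals are uncertain as separate measurements. With 1 array left out the pro-survival median lay between 0.04 and 0.18 and the pro-death median between −0.15 and 0.06. Dim probes such as those of Bcl2l1, Bid and Bbc3 are limited by background.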
